A study of Homo sapiens with 4 samples.

Results

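The nuclear genes that encode subunits of the mitochondrial respiratory chain were compared between wild type MCF10A cells and MCF10A cells overexpressing HSF1. They were chosen by symbol: protein-coding genes of the NDUFA, NDUFB, NDUFC, NDUFS, NDUFV, SDH, UQCR, COX4 to COX8 and ATP5 families. The symbols alone set the choice, but it was made with earlier results of these data known. It took 88 of the 63856 genes in the count table, after 1 matching pseudogene was left out. Of these, 37 were placed in complex I, 4 in complex II, 9 in complex III, 19 in complex IV and 19 in complex V, with NDUFA4 and NDUFA4L2 counted under complex IV. A few are not subunits themselves: 2 readthrough genes (NDUFC2-KCTD14 and ATP5J2-PTCD1), the supercomplex factor COX7A2L, and ATP5S and ATP5SL, which RefSeq now names DMAC2L and DMAC2. CYC1 of complex III does not match the symbols and is given with the genes outside the list.

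MCF10A is a non-tumorigenic human mammary epithelial line. RNA-seq was done on 2 libraries of unmodified cells (wild type) and 2 of cells stably transduced with a pLVX-Puro lentivirus carrying the HSF1 coding sequence and selected with puromycin (HSF1-pLVX). No empty-vector library was analysed here, so transduction and selection cannot be told apart from HSF1. The wild type libraries held 19510275 and 18688109 counts in replicates 1 and 2, and the HSF1-pLVX libraries 24184285 and 19851092. The study calls the pairs biological replicates without saying how they were grown. The p-values set the difference between groups against the spread within these pairs of libraries, moderated by the spread of other genes. Whether that covers the spread between independent cultures is not known.

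HSF1, the heat shock transcription factor itself, was at 200.4 and 189 CPM (counts scaled to a common library size with TMM factors) in wild type cells and at 982 and 999 CPM in HSF1-pLVX cells. The fitted log2 fold change was 2.35 ± 0.10 (SE; edgeR adjusted p = 1.15e-10). The 10 breast epithelial markers were all above the floor of 3 counts, and their summed level was 21280 and 20710 CPM in wild type against 10790 and 11380 CPM in HSF1-pLVX cells. They did not all move the same way. KRT17 went from 7223 and 7165 CPM to 1183 and 1256, and KRT8, KRT14, KRT18, EPCAM, CDH1 and LAMB3 were also lower. KRT5 went from 2138 and 2088 CPM to 4293 and 4890, TP63 was also higher, and ITGB4 overlapped between groups. Among markers of other cell types, 3 of 6 for fibroblasts, 3 of 4 for immune cells, 1 of 2 for adipocytes and 3 of 5 for muscle were at or under 3 counts in every library. All 3 endothelial markers summed to at most 1.41 CPM. The fibroblast list summed to 7.46 and 10.6 CPM in wild type against 14.9 and 13.9 CPM in HSF1-pLVX cells. Within that list DCN went from 1 and 3 counts to 94 and 87, and PDGFRB from 2 and 0 to 10 and 5. COL1A1 overlapped between groups. The part of these shifts in the results below was not tested. In bulk RNA, fewer cells of a type and less RNA per cell cannot be told apart.

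The respiratory chain moves electrons from NADH, through complex I, and from succinate, through complex II, to ubiquinone, and on through complex III and cytochrome c to complex IV, which reduces oxygen. Complexes I, III and IV pump protons across the inner mitochondrial membrane, and complex V, the ATP synthase, uses the gradient to make ATP. Except for complex II, each complex joins nuclear-encoded subunits with subunits encoded by mitochondrial DNA. The nuclear promoters are known for sites of NRF1 and of ETS-family factors such as GABP, while HSF1 is known for binding heat shock elements at chaperone genes.

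The promoters of the members were read from RefSeq (GRCh38.p14, 250 bases before to 50 after the start). A promoter was found for 70 of the 88 members. Among those without an entry were ATP5B, ATP5D, ATP5G3, ATP5J2, ATP5J2-PTCD1, ATP5L2, ATP5S, COX4I2, COX6C, COX7A1, NDUFB5, NDUFB9, NDUFC2, NDUFS5, SDHC, UQCRB and UQCRHL. Of the 17 members whose change was called under every planned fit, 5 held an ETS core (CCGGAAG) or an NRF1 core (GCATGCG) upstream of the start, on either strand. All 5 are shown, of which 3 rose and 2 fell. Each line is the gene's own strand, 5′ to 3′, and the capitals mark the matches, which run to 8 letters where the NRF1 core is met on both strands. SDHD lies at chr11:112086739-112086827 on the plus strand, 134 to 46 bases before the start, and UQCRH at chr1:46303627-46303683 on the plus strand, 71 to 15 bases before it. ATP5G2 lies at chr12:53676092-53676149 on the minus strand, 66 to 9 bases before the start. NDUFA1 lies at chrX:119871760-119871816, 72 to 16 bases before it, and NDUFB4 at chr3:120596153-120596210, 183 to 126 bases before it, both on the plus strand. These starts are those of RefSeq. The counted genes ATP5G2 and NDUFA1 begin 1325 and 345 bases from them, so their stretches lie within the span of the counted gene. Those of SDHD and UQCRH lie partly within it.
SDHD: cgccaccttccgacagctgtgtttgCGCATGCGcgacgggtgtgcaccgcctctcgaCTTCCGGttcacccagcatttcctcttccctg
UQCRH: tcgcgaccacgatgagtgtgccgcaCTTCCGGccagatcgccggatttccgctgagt
ATP5G2: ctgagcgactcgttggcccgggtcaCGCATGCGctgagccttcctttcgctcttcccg
NDUFA1: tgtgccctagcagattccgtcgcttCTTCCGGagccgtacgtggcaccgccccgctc
NDUFB4: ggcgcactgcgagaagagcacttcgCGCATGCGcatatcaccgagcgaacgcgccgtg
SDHD, UQCRH and ATP5G2 rose and NDUFA1 and NDUFB4 fell. The ETS core stood in SDHD, UQCRH and NDUFA1, and the NRF1 core in SDHD, ATP5G2 and NDUFB4. Whether either core bears on the changes was not tested.

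Over all 70 promoters, the ETS core stood in 19 (27.1%), against 14.2% of 15843 protein-coding promoters of the same length. It was in 4 of the 16 promoters of members that rose, 6 of 16 of those that fell and 8 of 30 of those not called. The NRF1 core stood in 13 (18.6%), against 5.14% of all promoters: 4 of members that rose, 2 of members that fell and 6 of those not called. The core of YY1 (AAGATGG), another factor known at these genes, stood in 16 (22.9%), against 6.4%: 3 of members that rose, 1 that fell and 9 not called. A heat shock element, read as GAA units in alternating orientation with 2 free bases between each of 3 units, was in 0 of the 70 and in 0.366% of all promoters. All were searched on both strands, and no core contains another. These are letter matches in this window, not binding data.

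Of the 88 members, 77 had enough counts to be tested. In HSF1-pLVX cells 21 were called higher and 19 lower than in wild type at an edgeR adjusted p of 0.05, and 37 were not called. That is 27.27% higher and 24.68% lower, beside 32.7% higher and 33.2% lower of all 15830 genes tested (65.9% called in either direction). Only NDUFV1 and NDUFA4L2 rose and COX6B2 fell by at least 2-fold, which is 3.896% of the tested members beside 28.9% of all genes (14.9% higher and 14.0% lower). The members had a median log2 fold change of 0.04 and all genes 0.02, and the median size of the change, without its sign, was 0.27 and 0.58. Without HSF1-pLVX replicate 2, 9 members were higher and 13 lower, and the share of all genes called was 46.0%.

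The libraries of a group did not overlap those of the other in 34 members higher and 25 lower in HSF1-pLVX cells, of 77, beside 42.1% and 41.0% of all genes (83.1% in either direction). Lowly expressed genes can show large folds from few counts. Among the 71 members at 10 CPM or more, 20 rose and 17 fell, and the median size of the change was 0.23. Over the 9118 genes at that level it was 0.49, with 74.01% called. The study itself asks for ratios over 2.0 or under 0.5 of the deposited normalized values in replicates 1 and 2 alike. By that criterion 0 members passed in either direction, beside 11.4% of all rows of that table.

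**Figure D1:**
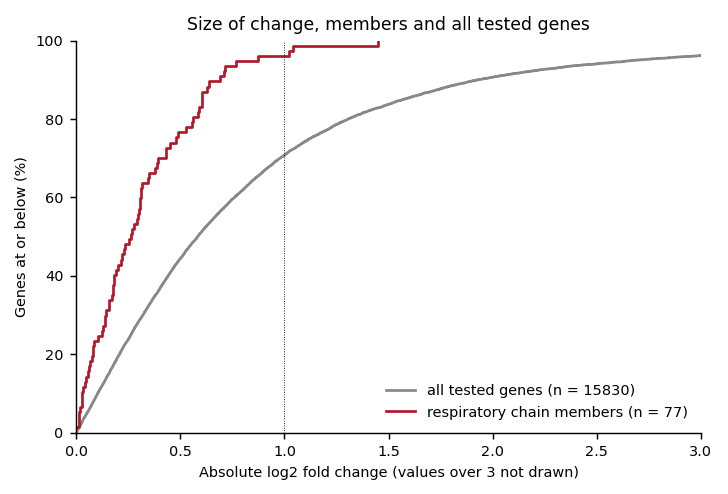
The curves give the percentage of genes (vertical axis) whose absolute log2 fold change between HSF1-pLVX and wild type cells is at or below the value on the horizontal axis, for the 77 tested members and for all 15830 tested genes, with a dotted line at 2-fold. The members' curve lies to the left, with medians of 0.27 and 0.58.

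Complex I, which oxidizes NADH, had 32 tested members, of which 3 rose, 11 fell and 18 were not called. Its shares were 9.375% higher and 34.38% lower, beside 32.7% and 33.2% of all genes. Those not called ran from -0.13 (NDUFS4) to 0.71 (NDUFV2) on the log2 scale. Of the 6 tested core subunits, which include those that carry the flavin and iron-sulphur clusters and are shared with bacteria, 1 rose and 0 fell, and of the 26 accessory subunits, 2 rose and 11 fell. Core subunits had a median log2 fold change of 0.16 and accessory subunits -0.04, and no test of that difference was made. Without wild type replicate 2 the number of complex I members called higher was 7, without HSF1-pLVX replicate 1 it was 5, and the number called lower was 8 to 10 without any single library.

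NDUFV1 carries the flavin that accepts electrons from NADH, and lies on chromosome 11 at 67606852 to 67612535. It was at 116 and 112 CPM in wild type and 220.2 and 243 CPM in HSF1-pLVX libraries. The wild type pair lay close together and both HSF1-pLVX libraries stood well above it. The log2 fold change was 1.02 ± 0.09 (SE; edgeR adjusted p = 2.01e-07). NDUFA10, an accessory subunit related to nucleoside kinases, rose from 64.8 and 64.1 CPM to 92.5 and 104 CPM (log2 fold change 0.61 ± 0.09, adjusted p = 2.78e-05). NDUFB9 of the membrane arm was the other member that rose (0.43).

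NDUFC1, a small membrane-arm subunit encoded on chromosome 4 at 139266880 to 139302551, showed the largest fall in complex I. It was at 33.9 and 39.1 CPM in wild type and 20.0 and 19.8 CPM in HSF1-pLVX libraries, with no overlap and a log2 fold change of -0.87 ± 0.10 (adjusted p = 3.13e-06). NDUFA12, an accessory subunit of the NADH-binding end, followed with 54.0 and 51.9 CPM against 34.6 and 35.9 CPM (-0.59 ± 0.09, adjusted p = 3.07e-05). The remaining falls were in NDUFC2 (-0.58), NDUFB2 (-0.56), NDUFA13 (-0.48), NDUFA1 (-0.45), NDUFB4 (-0.39), NDUFB7 (-0.39), NDUFA2 (-0.38), NDUFB1 (-0.31) and NDUFS5 (-0.23), all log2 fold changes. NDUFC2, NDUFA13, NDUFB7, NDUFB1 and NDUFS5 were not called under every planned fit. The log2 ratio of NDUFC2 was -0.13 in replicate number 1 and -1.01 in replicate number 2. NDUFA13 was under 10 CPM in every library. The tested accessory subunits were grouped by position after their values were seen. The 17 placed in the membrane arm, which holds the proton-pumping part of the enzyme, had 9 lower, 1 higher (NDUFB9) and 7 not called. NDUFA11, NDUFB3, NDUFB5, NDUFB6, NDUFB8, NDUFB10 and NDUFB11 were those not called. Of the other 9 accessory subunits, 2 fell, 1 rose and 6 were not called, and the difference was not tested. NDUFA10, which rose, and NDUFA8, not called, were among these 9. Placing them in the membrane arm instead would change the counts of both groups. NDUFA1, NDUFB2 and NDUFA13 share 44.52%, 35.91% and 20.97% of their counted bases with other genes.

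NDUFS5, an accessory subunit of the membrane arm, had the highest level per length in complex I, at 329 and 302 CPM per kilobase in wild type and 260.4 and 276 in HSF1-pLVX libraries. Its fall was small (adjusted p = 0.0319) and was not called with the replicate number as a block (-0.23), with library size alone (-0.17), with no filter on low counts (-0.24), without wild type replicate 1 (-0.16), or without HSF1-pLVX replicate 1 (-0.19) or 2 (-0.27). The core subunits NDUFS3, NDUFS7 and NDUFS8, the last pair of which carry iron-sulphur clusters, were not called, with log2 fold changes of 0.06 to 0.18. Neither were the accessory subunits NDUFS4 and NDUFS6, whose values were -0.13 and 0.12.

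Several subunits that complex I needs could not be read from these counts. NDUFA6 was listed at 0 in all 4 libraries, NDUFA3 held 1 or 2 counts, and NDUFA7 held 7 to 10. The core subunit NDUFV2 held only 20, 30, 49 and 49 counts. NDUFS1, the largest core subunit, held 8 and 7 counts in wild type libraries and 10 and 159 in HSF1-pLVX libraries, so replicate 2 of HSF1-pLVX stood alone. NDUFA6 has 5 rows in the authors' normalized table, and NDUFA3 and NDUFS1 have 2 each. The count table has 5637 genes on contigs outside the main chromosomes, and how reads that fit several places were counted is not stated. Its part in these low values was not tested.

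**Figure D2:**
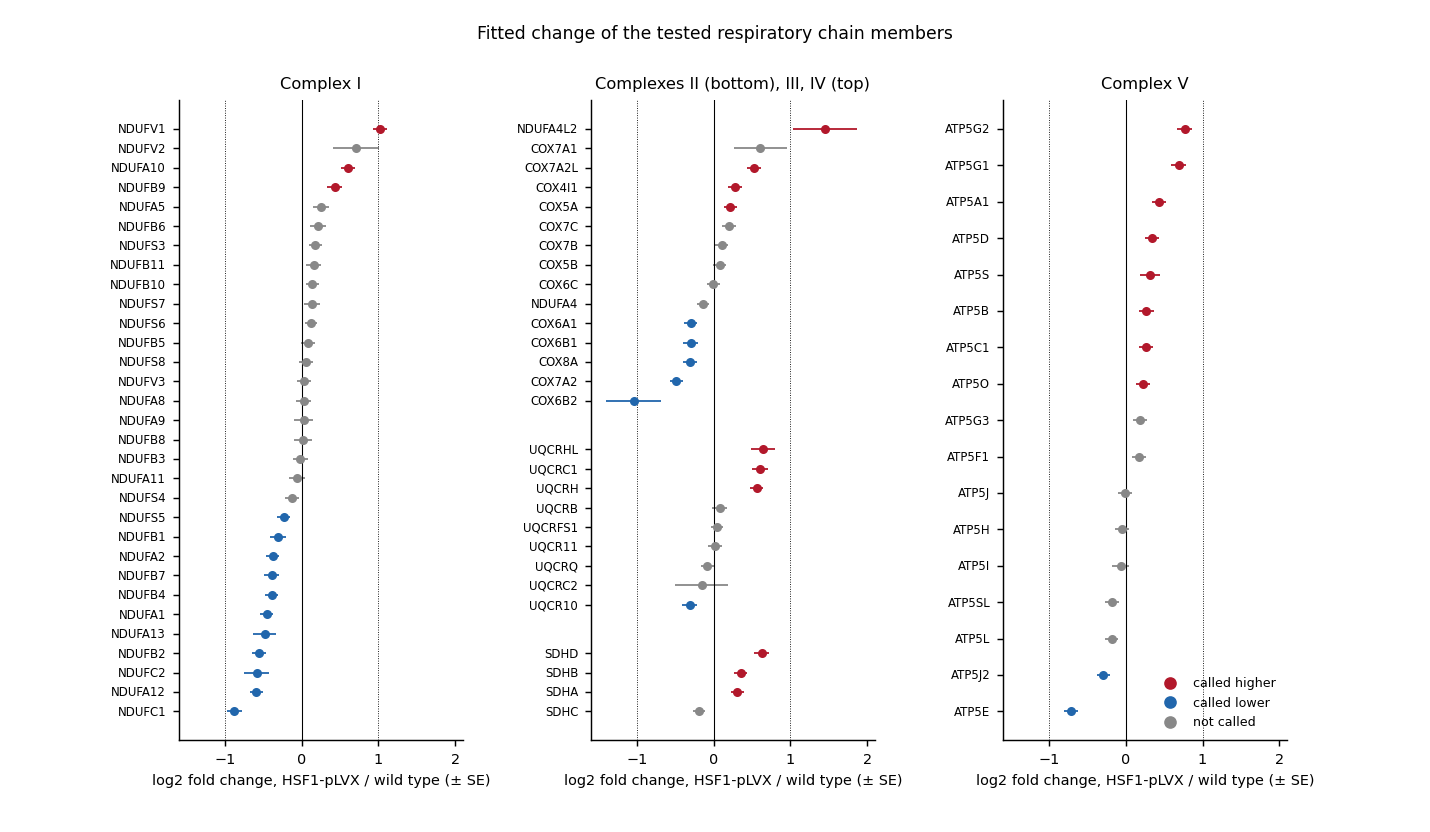
Each point is a tested member, by complex (1 that was not called is left out), with its fitted log2 fold change between HSF1-pLVX and wild type cells and its standard error (2 libraries per group), and dotted lines mark 2-fold. Red members were called higher (21), blue lower (19) and grey not called (37). Complex I, with 32 of the 77 tested members, holds 11 of the 19 falls.

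Complex II, succinate dehydrogenase, oxidizes succinate in the citric acid cycle and passes the electrons to ubiquinone. It is the small complex with no mitochondrially encoded subunit. Of its 4 subunits, 3 rose (75.0%) and 1 was not called, each by less than 2-fold, beside 32.7% of all genes higher. The summed level was 269.8 and 272 CPM in wild type and 318 and 328 CPM in HSF1-pLVX libraries.

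SDHD, a membrane anchor encoded on chromosome 11 at 112086773 to 112120013, was at 33.5 and 40.2 CPM in wild type and 56.7 and 56.98 CPM in HSF1-pLVX libraries. The HSF1-pLVX pair lay close together and above both wild type libraries (log2 fold change 0.63 ± 0.10, adjusted p = 5.44e-05). SDHB, the iron-sulphur subunit, had the highest level per length of the complex, at 24.4 and 22.95 CPM per kilobase against 29.3 and 31.1. In CPM it was at 60.04 and 56.5 in wild type and 72.2 and 76.6 in HSF1-pLVX libraries (0.35 ± 0.08, adjusted p = 0.00202). SDHA, the flavoprotein that takes electrons from succinate, was at 106 and 104 CPM against 125 and 134 CPM (0.31 ± 0.09, adjusted p = 0.0056). SDHC, the other anchor, went the other way without being called, at 70.7 and 71.7 CPM against 64.3 and 60.6 CPM (-0.19 ± 0.08, adjusted p = 0.0567), although it was called with DESeq2 size factors (-0.20). Without HSF1-pLVX replicate 2, only SDHD was called in this complex, with SDHB at 0.32 and SDHA at 0.27.

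Complex III passes electrons from ubiquinol to cytochrome c. Of its 9 members, all tested, 3 rose (33.33%), 1 fell (11.11%) and 5 were not called, beside 32.7% and 33.2% of all genes. UQCRC1, core protein 1, encoded on chromosome 3 at 48599002 to 48610976, was at 165 and 143 CPM in wild type and 219 and 249 CPM in HSF1-pLVX libraries (log2 fold change 0.60 ± 0.10, adjusted p = 1.04e-04). UQCRH, the hinge protein next to cytochrome c1, was at 78.5 and 77.6 CPM against 108 and 122 CPM (0.56 ± 0.09, adjusted p = 7.11e-05). In both genes each HSF1-pLVX library lay above each wild type library.

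UQCRHL, an intronless copy of UQCRH, had the largest fitted rise of complex III. It was at 8.26 and 9.31 CPM in wild type and 11.7 and 15.9 CPM in HSF1-pLVX libraries (0.64 ± 0.16, adjusted p = 0.00251), and was not called without HSF1-pLVX replicate 2 (0.42). Its reads could come from UQCRH, which it resembles, and the counts do not separate them. UQCR10, a small subunit, was the member that fell, from 64.4 and 56.6 CPM to 46.3 and 51.2 CPM (-0.31 ± 0.09, adjusted p = 0.0088). Its call was lost without wild type replicate 1 (-0.20) and without either HSF1-pLVX replicate (-0.24 and -0.37). UQCRQ, the highest member of the complex per length in wild type and over all 4 libraries, was at 78.6 and 73.7 CPM per kilobase in wild type and 70.3 and 73.5 in HSF1-pLVX libraries, and was not called. It shares 20.79% of its counted bases with GDF9. In HSF1-pLVX libraries UQCRH was higher per length, at 76.6 and 86.8 CPM per kilobase. Among the catalytic subunits, the Rieske protein UQCRFS1 had a log2 fold change of 0.04 (not called). Core protein 2, UQCRC2, held 17 and 32 counts in wild type and 30 and 23 in HSF1-pLVX libraries, and a second row of the same symbol in the authors' normalized table was higher in every library, at 7.28 to 8.59 against 5.09 to 5.67 on its log2-like scale. Its level was therefore not readable from the main row.

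**Figure D3:**
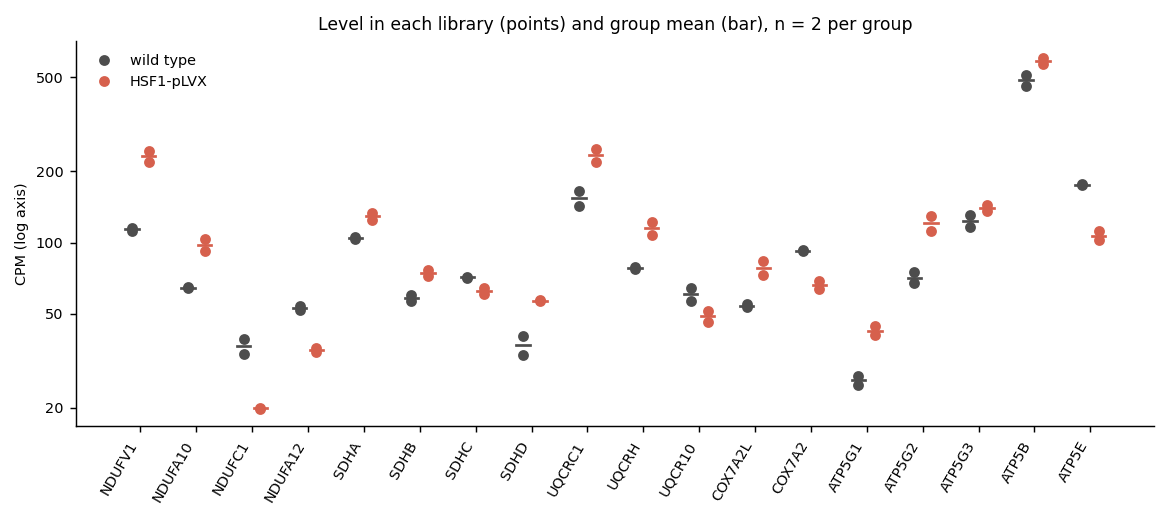
Points give the level of 18 members in each library in CPM (log axis), wild type in grey and HSF1-pLVX in red, with a bar at the mean of the 2 libraries. NDUFV1, for example, lies at 116 and 112 CPM in wild type and 220.2 and 243 CPM in HSF1-pLVX libraries, and ATP5E moves the opposite way.

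Complex IV, cytochrome c oxidase, had 15 tested members, of which 4 rose, 5 fell and 6 were not called. Its shares were 26.67% higher and 33.33% lower, beside 32.7% and 33.2% of all genes. Of the 11 ubiquitous subunits, 2 rose (COX4I1 and COX5A) and 4 fell (COX7A2, COX8A, COX6B1 and COX6A1). The number called higher was 2 without wild type replicate 2 and 1 without HSF1-pLVX replicate 2, and the number called lower was 3 without HSF1-pLVX replicate 1.

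COX7A2, the ubiquitous form of subunit 7A, was at 93.0 and 92.0 CPM in wild type and 63.3 and 68.7 CPM in HSF1-pLVX libraries, the largest fall among the ubiquitous subunits (log2 fold change -0.49 ± 0.08, adjusted p = 1.38e-04). COX7A2L, which helps join complexes III and IV into supercomplexes, rose from 53.4 and 54.8 CPM to 72.7 and 83.4 CPM (0.53 ± 0.09, adjusted p = 1.29e-04). These related genes moved in opposite directions, with no overlap between groups in either. COX8A had the highest level of the complex per length, at 251 and 213 CPM per kilobase in wild type and 194 and 182 in HSF1-pLVX libraries. It shares 34.52% of its counted bases with another gene. Its fall (-0.31 ± 0.10, adjusted p = 0.0112) was not called without wild type replicate 1 (-0.17) or HSF1-pLVX replicate 2 (-0.25).

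The other called ubiquitous subunits had log2 fold changes between -0.30 and 0.28. COX4I1 rose from 187 and 191 CPM to 213 and 247 CPM (0.28 ± 0.10, adjusted p = 0.019), and was not called without HSF1-pLVX replicate 2 (0.18). COX5A rose by 0.22. COX6B1 was at 114 and 105 CPM in wild type and 80.9 and 97.5 CPM in HSF1-pLVX libraries (-0.30, adjusted p = 0.0156), and was not called without wild type replicate 1 (-0.23) or HSF1-pLVX replicate 1 (-0.16). COX6A1 was at 95.6 and 94.7 CPM against 74.4 and 80.4 CPM (-0.30, adjusted p = 0.00609), and was not called without HSF1-pLVX replicate 1 (-0.24). COX7B, at 59.3 and 62.8 CPM against 63.6 and 67.8 CPM, was not called (0.10), nor were COX5B, COX6C and COX7C.

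Tissue-restricted forms of complex IV subunits had few or no counts. COX6A2 of muscle and COX7B2 and COX8C of testis had 0 counts in all 4 libraries, which allows at most 0.188%, 0.269% and 0.164% of the counts of their pairs with COX6A1, COX7B and COX8A (3 counts of the total, counting error only). COX4I2, the lung form of subunit 4, held 8 and 17 counts in wild type and 0 and 5 in HSF1-pLVX libraries, too few to be tested. COX7A1 of muscle made up 0.683% and 1.16% of the subunit 7A counts in wild type and 2.15% and 1.73% in HSF1-pLVX libraries. Its own log2 fold change of 0.61 ± 0.35 was not called (adjusted p = 0.139). COX6B2, known from testis, held 38 and 53 counts in wild type and 41 and 13 in HSF1-pLVX libraries, or 2.02 and 2.85 CPM against 1.63 and 0.654 CPM. It was called lower by more than 2-fold (-1.04 ± 0.36, adjusted p = 0.0201), but not without wild type replicate 2 (-0.80) or HSF1-pLVX replicate 2 (-0.56), nor by DESeq2's Wald test (-1.08), and its value was -1.88 without HSF1-pLVX replicate 1.

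NDUFA4 was first assigned to complex I and is now placed in complex IV, where NDUFA4L2, induced by hypoxia, and C15orf48, induced in inflammation, are its relatives. NDUFA4 itself was not called, at 76.3 and 75.6 CPM in wild type and 68.1 and 69.8 CPM in HSF1-pLVX libraries (log2 fold change -0.14 ± 0.08, adjusted p = 0.141). C15orf48 fell from 61.5 and 65.5 CPM to 31.1 and 17.6 CPM (-1.37 ± 0.17, adjusted p = 7.01e-06). NDUFA4L2 rose from 12 and 5 counts to 28 in each HSF1-pLVX library, or from 0.639 and 0.269 CPM to 1.12 and 1.41 CPM (1.45 ± 0.42, adjusted p = 0.00699). With so few counts it was not called without wild type replicate 2 (0.95), without HSF1-pLVX replicate 2 (1.29) or by DESeq2 (1.46).

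Of the counts of these 3 genes, NDUFA4 took 55.1% and 53.5% in wild type and 67.9% and 78.6% in HSF1-pLVX libraries. C15orf48 took 44.4% and 46.3% against 31.0% and 19.8%. Per kilobase of counted length C15orf48 led instead in wild type, with 66.9% and 68.6% against 32.8% and 31.3% for NDUFA4. In HSF1-pLVX libraries it took 53.1% and 38.3% per kilobase and NDUFA4 45.9% and 60.1%. For the shares of counts, the 95% Clopper-Pearson intervals, which cover counting error only, were 53.2% to 57.1% for NDUFA4 in wild type replicate 1 and 66.0% to 69.7% in HSF1-pLVX replicate 1. The shares of the HSF1-pLVX libraries differed from each other by more than those of the wild type pair, and the groups did not overlap.

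Complex V, the ATP synthase, had 17 tested members, of which 8 rose, 2 fell and 7 were not called. Its shares were 47.06% higher and 11.76% lower, beside 32.7% and 33.2% of all genes. By share, complex II had more called higher, at 75.0% of its 4 members. Without HSF1-pLVX replicate 2, 3 rose and 1 fell, and without wild type replicate 1, 7 rose and 1 fell. In the catalytic F1 head and its shaft all 5 subunits were called, 4 higher and 1 lower. The alpha subunit ATP5A1 (0.43), the delta subunit ATP5D (0.34), the catalytic beta subunit ATP5B (0.27) and the gamma subunit ATP5C1 (0.27) rose on the log2 scale.

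ATP5B was the member with the highest level per length in complex V, at 220.1 and 198 CPM per kilobase in wild type and 244 and 259 in HSF1-pLVX libraries. In CPM it was at 511 and 459 in wild type against 567 and 602 in HSF1-pLVX libraries (0.27 ± 0.10, adjusted p = 0.026). That rise was not called with the replicate number as a block (0.27), with a correction for gene length (0.22), or without wild type replicate 2 (0.18) or HSF1-pLVX replicate 2 (0.24). ATP5E, the epsilon subunit of the same head and the smallest by coding length, went the other way. It was at 175 and 176 CPM in wild type and 102 and 112 CPM in HSF1-pLVX libraries (-0.71 ± 0.09, adjusted p = 5.88e-06), with no overlap. ATP5E is encoded on chromosome 20 at 59025467 to 59032382 and shares 23.18% of its counted bases with TUBB1.

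Subunit c forms the rotating ring of the membrane part, and ATP5G1, ATP5G2 and ATP5G3 encode the same mature protein behind different import sequences. ATP5G2 rose from 74.8 and 67.4 CPM to 112 and 129.7 CPM (log2 fold change 0.77 ± 0.10, adjusted p = 6.65e-06), and is encoded on chromosome 12 at 53632726 to 53677408. ATP5G1, on chromosome 17 at 48892765 to 48895871, rose from 27.4 and 25.1 CPM to 40.6 and 44.2 CPM (0.69 ± 0.10, adjusted p = 1.80e-05). ATP5G3, at 131 and 117 CPM against 137 and 144 CPM, was not called (0.18 ± 0.09, adjusted p = 0.0909). It was called without wild type replicate 1 (0.28) and with library size alone as the scale (0.24).

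The makeup of the subunit c transcripts shifted with these values. ATP5G3 took 56.1% and 55.8% of the counts of the 3 genes in wild type and 47.2% and 45.3% in HSF1-pLVX libraries. ATP5G2 took 32.1% and 32.2% against 38.8% and 40.8%, and ATP5G1 11.8% and 11.99% against 14.0% and 13.9%. Per kilobase of counted length, ATP5G2 and ATP5G3 had near-equal shares in wild type, 38.7% against 39.8% in replicate 1, while in HSF1-pLVX replicate 1 they were 44.1% and 31.6%. ATP5G1 has 8 named processed pseudogenes and ATP5G2 has 5, so some reads may be counted elsewhere.

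In the peripheral stalk, which holds the head still, 1 of 4 rose, ATP5O (0.23), and ATP5F1, ATP5H and ATP5J were not called. Of the small membrane subunits, ATP5J2 fell from 62.9 and 58.1 CPM to 51.0 and 47.7 CPM (-0.29 ± 0.09, adjusted p = 0.00822). It was not called without wild type replicate 1 (-0.22) or HSF1-pLVX replicate 2 (-0.24). ATP5L and ATP5I were not called (-0.18 and -0.07). Outside the enzyme, ATP5S rose (0.32) and ATP5SL was not called (-0.18). ATP5L2, a copy of ATP5L, and the readthrough genes NDUFC2-KCTD14 and ATP5J2-PTCD1 held 0 to 2 counts and were not tested.

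**Figure D4:**
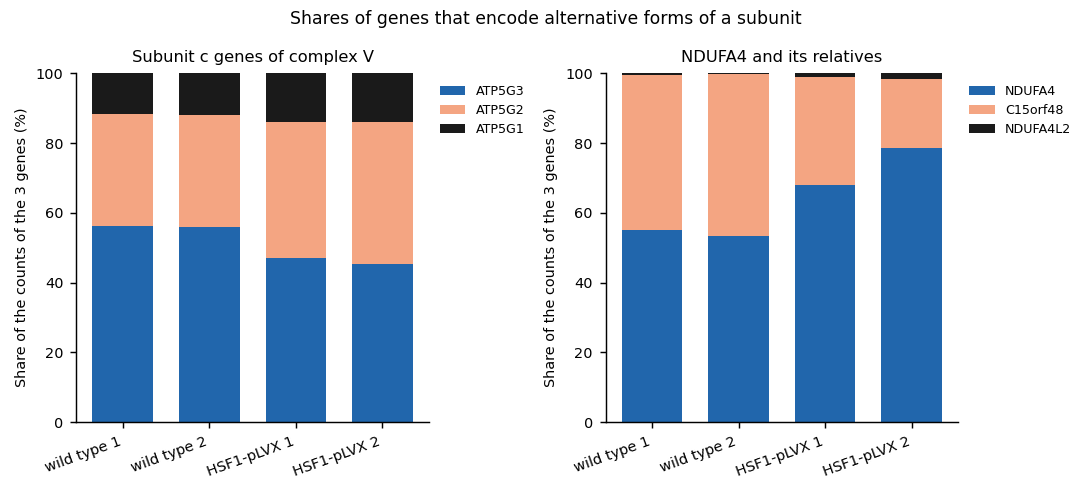
Stacked bars give the share, in percent, of each gene in the counts of the 3 subunit c genes (left) and of NDUFA4, C15orf48 and NDUFA4L2 (right), for each of the 4 libraries. ATP5G3 goes from 56.1% and 55.8% in wild type to 47.2% and 45.3% in HSF1-pLVX libraries, and C15orf48 from 44.4% and 46.3% to 31.0% and 19.8%.

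Summed over all members, the level was 5719 and 5509 CPM in wild type and 5836 and 6338 CPM in HSF1-pLVX libraries. The log2 ratio of the means was 0.12, and 0.03 and 0.20 within replicate numbers 1 and 2, so the pairs differed from each other by more than the mean ratio. Summed per kilobase, which gives short genes more weight, the ratio was -0.01. By complex, the log2 ratio of the summed CPM was 0.05 for I, 0.25 for II, 0.24 for III, 0.01 for IV and 0.17 for V. Only in complexes II, III and V was it above 0 within both replicate numbers. With 2 libraries against 2, an exact permutation test cannot go below p = 0.333, so none is given.

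The members that rose and fell differed in the length of their coding sequence, a feature not used in choosing them and looked at after their values were seen. All 19 members that fell had coding sequences of 153 to 483 bases, with a median of 315. The 21 that rose ran from 273 to 1992 bases, with a median of 639. Of 33 tested members of up to 400 bases, 4 rose and 16 fell (median log2 fold change -0.18). Of 34 over 400 and up to 1000 bases, 11 rose and 3 fell (0.15), and of 10 longer members, 6 rose and 0 fell (0.29).

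Across all genes the same classes differed little, with medians of -0.08, -0.06 and -0.01 over 569, 3211 and 8934 genes. Of all genes, 29.88% rose and 38.49% fell in the shortest class, 30.71% and 38.06% in the middle class, and 34.14% and 36.18% in the longest. Across the 77 members, Spearman's rho between coding length and log2 fold change was 0.42, and 0.49 over the 71 members at 10 CPM or more, while over 12714 genes it was 0.01. This is a description: the members share complexes and families, and length goes with the subunit classes above, since the small membrane subunits are short and the catalytic subunits long. Without HSF1-pLVX replicate 2 the rho was 0.40, with 10 of the shortest members lower and 3 of the middle class higher, and without wild type replicate 1 it was 0.43, also with 10 of the shortest lower. A smooth trend of counted length, which is not the coding length, was also taken out of each library. The rho with coding length was then 0.45, which does not tell what a correction for coding length would give. Across the members, rho with counted length was 0.26, and over all 15830 genes it was -0.06.

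**Figure D5:**
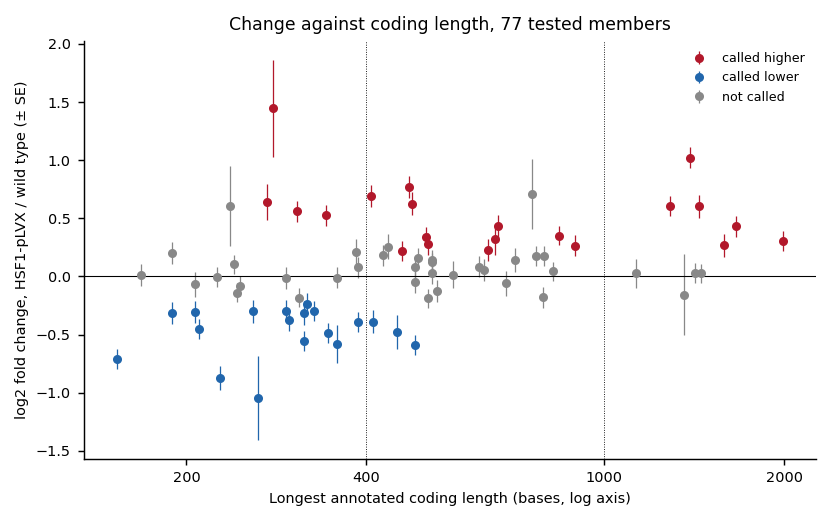
Each point is a tested member, with its longest annotated coding length in bases (log axis) and its fitted log2 fold change between HSF1-pLVX and wild type cells with standard error; dotted lines mark 400 and 1000 bases. No member called lower (blue) is longer than 483 bases, and 6 of the 10 members over 1000 bases were called higher (red).

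The other genes of respiration were read from lists of known genes. The calls of each list stand beside 32.7% of all genes higher and 33.2% lower. Of the 13 subunits encoded by mitochondrial DNA, 5 rose and 0 fell: MT-ND1 (log2 fold change 0.59), MT-ND2 (0.67), MT-ND3 (0.44), MT-CO3 (0.62) and MT-ATP8 (0.27). MT-ND2 was at 4188 and 3397 CPM in wild type and 5487 and 6566 CPM in HSF1-pLVX libraries. The count rests on single libraries, being 0 without HSF1-pLVX replicate 2 and 10 without wild type replicate 1, and it was 8 with library size alone as the scale and 3, with 1 lower, with a length trend taken out. The list summed to 74900 and 63000 CPM in wild type and 78470 and 90440 CPM in HSF1-pLVX libraries.

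Assembly factors, which build the complexes but are not part of them, were also measured. Of 51 tested, 22 rose and 11 fell, 5 of them higher and 1 lower by at least 2-fold, beside 32.7% of all genes higher, 33.2% lower and 28.9% past 2-fold. LRPPRC, which stabilizes mitochondrial messenger RNAs, was at 92.0 and 92.7 CPM in wild type and 264 and 261 CPM in HSF1-pLVX libraries (log2 fold change 1.51 ± 0.09, adjusted p = 2.37e-09). FOXRED1 (1.23) of complex I, BCS1L (1.15) and LYRM7 (1.06), which serve the Rieske protein of complex III, and SDHAF3 (1.001) of complex II also rose by at least 2-fold. TTC19, another complex III factor, fell from 117 and 129 CPM to 57.5 and 54.5 CPM (-1.14 ± 0.09, adjusted p = 4.84e-08). SURF1 was listed at 0 in every library and SCO2 held 0 to 2 counts, so these complex IV factors could not be read. Of the complex IV factors tested, 6 fell, and 2 without HSF1-pLVX replicate 2.

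Of 9 carriers and subunits that the symbols miss, 3 rose and 1 fell, beside 32.7% of all genes higher and 33.2% lower. DHODH, which feeds electrons to ubiquinone from pyrimidine synthesis, was at 3.94 and 3.55 CPM in wild type and 10.04 and 9.92 CPM in HSF1-pLVX libraries (1.41 ± 0.16, adjusted p = 3.09e-06). ETFB, a subunit of the electron carrier of fatty acid oxidation, rose by 1.28 and cytochrome c1, CYC1, by 0.60 on the log2 scale, the latter near UQCRC1 and UQCRH. USMG5, a small complex V subunit, fell by 0.59 on the log2 scale.

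Of 16 regulators of mitochondrial gene expression, 8 rose and 1 fell, beside 32.7% of all genes higher and 33.2% lower. The coactivator PPARGC1B was at 1.76 and 2.58 CPM in wild type and 13.6 and 14.4 CPM in HSF1-pLVX libraries (2.68 ± 0.18, adjusted p = 1.36e-08). TWNK, the mitochondrial DNA helicase, rose by 1.17 and TFAM, which packs mitochondrial DNA, by 1.05 on the log2 scale. PPARGC1A was also called (2.87 ± 0.72, adjusted p = 0.00296) on 0 and 5 counts in wild type and 16 and 29 in HSF1-pLVX libraries. Without HSF1-pLVX replicate 2, 5 of the list rose and 0 fell. Without either the first wild type or the first HSF1-pLVX library, 0 fell. Of 14 citric acid cycle enzymes, of which complex II is also a step, 6 rose and 3 fell, and OGDH was at 303 and 261 CPM against 124 and 123 CPM (-1.19 ± 0.10, adjusted p = 7.48e-08). The number that fell was 1 without HSF1-pLVX replicate 2.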

How the data were processed

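RNA-seq libraries of MCF10A cells (2 wild type, 2 HSF1-pLVX) were grouped by the variant in their labels. The authors aligned paired-end reads to hg38 with HISAT2 2.0.5, processed them with SAMtools 1.13 and deposited raw counts per gene from featureCounts 1.6.5, with GENCODE gene models named in the deposited file. Strand, overlap and multi-mapping settings are not given in the sources used here. Without them, reads shared with an overlapping gene, pseudogene or copy cannot be placed. The authors also deposited log2-like values normalized with DESeq2 1.32.0. The symbols listed with them served to choose the members. The values served to apply the ratio rule of the study and to read repeated rows of a symbol.

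The test was the quasi-likelihood test of edgeR 4.0.16 under R 4.3.3, after TMM and filterByExpr, on all 4 libraries with no block, over 15830 genes, with Benjamini-Hochberg adjustment over all of them, and called at an adjusted p of 0.05. An error after ± is a standard error. CPM are TMM-normalized, and levels are compared between genes only in CPM per kilobase of counted length. Rows were named through GENCODE and RefSeq symbols. Coding length is the longest annotated coding sequence.

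The members and lists were chosen with earlier results of these data known. Named genes are HSF1, members past 2-fold, the 2 largest called rises and falls of each complex, the highest member per length, the subunits of complex II, the isoform genes, and up to 5 genes past 2-fold of each other list. Members outside that rule, such as UQCRH, NDUFS1 and those in lists of log2 fold changes, and mitochondrially encoded genes, were named after their values were seen. C15orf48 was taken as a relative of NDUFA4.

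The replicates of a pair differed by more than sampling noise (chi-square per degree of freedom 7.1 and 9.03). The correlation of same-numbered deviations was 0.00014 over all genes and -0.11 over the 9672 genes above 8 CPM, and no label ties the numbers to a culture. In 3 sets of simulated counts, 200 genes among about 15380 were changed by 2-fold or 4-fold. The fit recovered 99.7% of the 2-fold and 100% of the 4-fold changes, and 2.12% of its calls were false. Every gene was drawn with 1 common dispersion, and the changed genes were taken from well-counted ones. These rates therefore do not cover smaller changes, such as those of most members, or data with many more changed genes. Alternatives covered normalization, the filter, DESeq2 1.42.0, the block, gene length, the threshold and each library left out. Values of 1 member are not reported here by name, and it stays in all counts.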

Additional observations from a re-analysis of the deposited data

How the results depend on the processing

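None of the 40 called members changed sign under any of the 12 fits compared. The groups did not overlap in any of the 40, so leaving out a library or changing the fit could hardly turn a sign. Under every one of the planned fits, 17 calls (9 higher, 8 lower) were made. How many of all genes held in the same way was not counted. The 17 were NDUFV1, NDUFA10, SDHD, UQCRC1, UQCRH, COX7A2L, ATP5A1, ATP5G1 and ATP5G2 among the rises, and NDUFC1, NDUFA12, NDUFB2, NDUFA1, NDUFB4, NDUFA2, COX7A2 and ATP5E among the falls. Leaving out a library gave 9 to 23 members higher and 13 to 18 lower, 0 to 3 higher and 0 to 2 lower by at least 2-fold, a median log2 fold change of -0.01 to 0.12, and 30 to 49 higher and 7 to 14 lower genes of the other lists (44 and 16 with all libraries). The lowest of these counts of rises, 9, was without HSF1-pLVX replicate 2, where the share of all genes called was also lowest, at 46.0%. The lone sample of an arm is then assumed to vary like the other group. The number of members at least 2-fold lower, 1, was 0 with library size alone, 2 with no filter on low counts, 0 with DESeq2's Wald test and 0 by the study's ratio rule. The number at least 2-fold higher, 2, was 1 with DESeq2's Wald test, 1 with a length trend and 0 by the ratio rule. Summed per kilobase, the log2 ratio was -0.011 for all members, -0.12 for complex I, 0.37 for complex II and -0.11 for complex IV. By reads per kilobase, the difference in share (HSF1-pLVX minus wild type) was 2.33 percentage points for ATP5G1, 1.90 for COX7A1 and -2.03 for COX4I2. The cause of these shifts was not tested beyond what each setting changes. With the replicate number as a block, 19 members were higher and 18 lower, beside 65.1% of all genes called in either direction. The prior degrees of freedom of that fit were infinite, so its p-values rest on a variance pooled over genes. It is 1 of the planned fits. Same-numbered deviations had only a weak negative correlation over genes above 8 CPM (-0.11). The crossed pairing was added after seeing this and called 26 higher and 21 lower, beside 69.0% of all genes called in either direction. Because it was picked from the same data, its counts are not an independent check. Members under 10 CPM, 6 of those tested, have too few counts for small changes to be seen.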
